A study of Canis lupus familiaris with 60 samples.

Results

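The prostaglandin synthases PTGS1 and PTGS2, often called COX-1 and COX-2, were followed in dog skin before and after a house dust mite patch test. They are 2 of the 1066 genes that could be named on the canine array through a RefSeq transcript accession. PTGS2 (NM_001003354) was read by 1 probe and PTGS1 (NM_001003023) by 2 probes, and all 3 probes were found by this accession. The 12 Beagle dogs were 2 to 3 years old and lived under the same environmental and feeding conditions. In 6 of them (4 males and 2 females) epicutaneous sensitization to Dermatophagoides farinae had been induced, with positive intradermal tests and specific serum IgE, and the other 6 (2 males and 4 females) were nonsensitized controls. Each dog gave 5 punch biopsies of shaved chest skin, taken under local lidocaine: untreated skin at 0 hr, and at 6 hr and 24 hr the site of a bandaged patch with 75 mg of mite paste (allergen) and the site of a patch with 50 µl of saline. This makes 10 groups of 6 arrays. Specimen 14, the 24 hr allergen site of dog 2839, was excluded by the study's methods, so 59 arrays were compared and that group held 5 arrays.

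PTGS enzymes convert arachidonic acid, released from membrane phospholipids by phospholipases, into prostaglandin H2, from which terminal synthases make the single prostaglandins. PTGS1 is known as the constitutive form of most tissues, and PTGS2 as the form that cytokines, growth factors and injury induce within hours. In skin, prostaglandin E2 made downstream of PTGS2 takes part in vasodilation, itch and wound repair. Both enzymes are targets of nonsteroidal anti-inflammatory drugs.

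All levels are scaled log2 signals, in which a difference of 1 is a doubling. Levels of different probes cannot be set against each other, so a level is compared only with other levels of the same probe. Differences and ranges of PTGS2 and PTGS1 are given side by side, and how strongly each probe responds to a given change of RNA was not tested. The 3 probes were well above background on 59 of 59 arrays. Skin markers were present in all groups: the keratinocyte genes KRT1 and DSG1 and the fibroblast genes COL1A1, COL1A2 and DCN were well above background on 59 of 59 arrays. The median processed signal of an array ranged from 81.7 to 146.12, and 68.85% to 80.15% of its spots were well above background. Arrays lay on 8 slides: those of 0 hr on slides 6 to 8, those of 6 hr on slides 4 to 8, and those of 24 hr on slides 1 to 3, except 1 allergen array of a sensitized dog (2840) on slide 8. Slide and time therefore cannot be told apart in comparisons of 24 hr with earlier times beyond what that array adds, whereas the allergen and saline arrays of a dog lay on the same slide in 5 of 6 sensitized and 2 of 6 nonsensitized dogs at 6 hr and in 2 of 5 and 5 of 6 dogs at 24 hr. Because each biopsy mixes many cell types, fewer cells of a type and less RNA per cell cannot be told apart in any of these values.

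The signal of the PTGS2 probe varied more between groups than that of either PTGS1 probe. The 10 group means of PTGS2 spanned 2.56 and its single arrays ran from 5.85 to 10.07. The group means of PTGS1 spanned 0.61 at its brighter probe, with arrays from 9.23 to 11.04, and 0.45 at its second probe. Of the 19 comparisons made, PTGS2 passed the test in 4 and PTGS1 in 0. A gene was called when limma gave an adjusted p below 0.05 over all 45972 probes tested together with a change of at least 1.5-fold. The brighter PTGS1 probe had an unadjusted p below 0.05 in none of the 19 comparisons, and its second probe was called in none either. Over the 59 arrays the correlation of the PTGS1 probes was r = 0.93 and that of PTGS2 with PTGS1 was r = -0.19, as descriptions of arrays that include 4 or 5 from each dog.

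**Figure D1:**
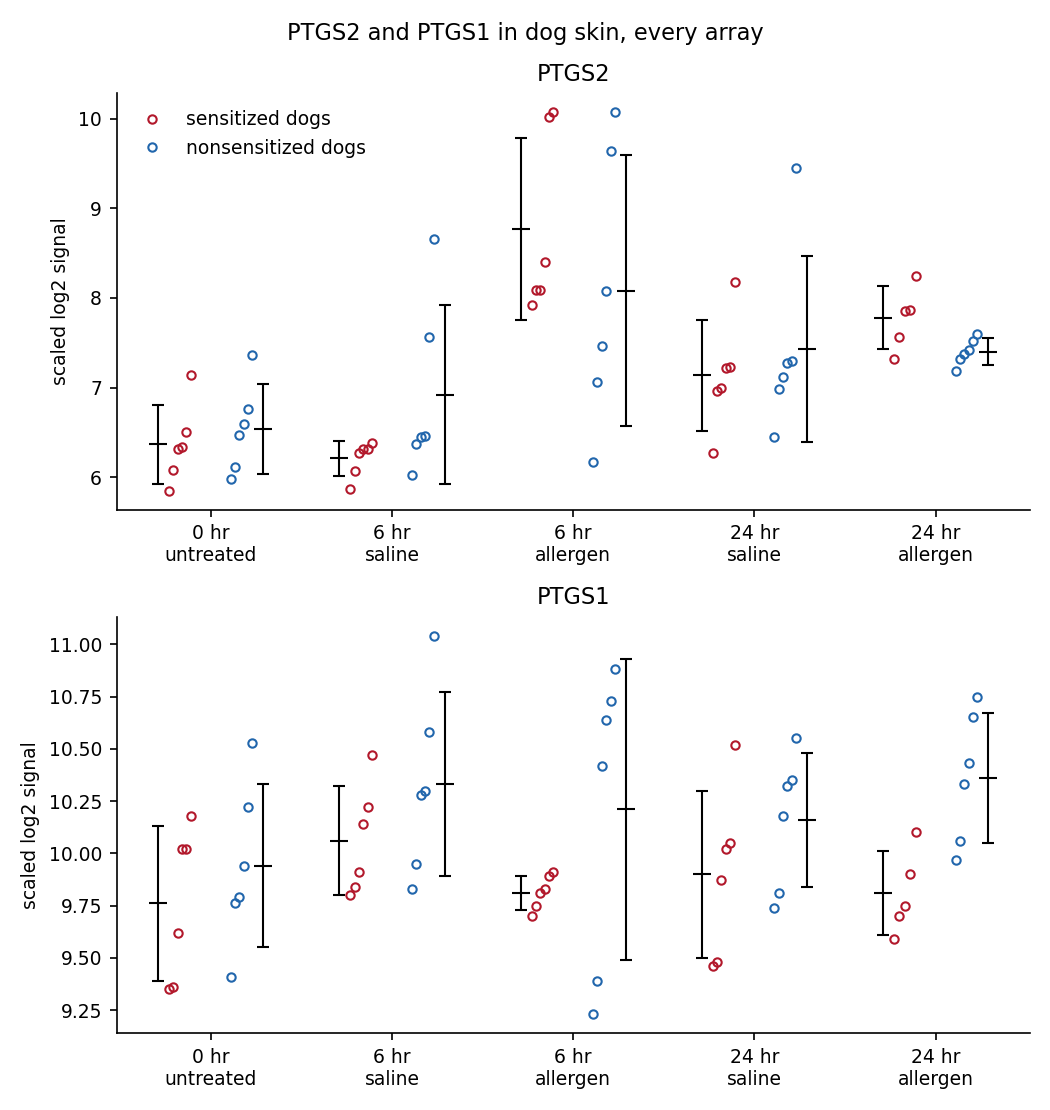
Scaled log2 signal (vertical axis) of PTGS2 (upper panel) and of PTGS1 at its brighter probe (lower panel) in each of the 10 groups along the horizontal axis. Circles are arrays, red for sensitized and blue for nonsensitized dogs, and black bars show the mean with its SD (n = 6, or n = 5 for 24 hr allergen of sensitized dogs). The panels have different vertical scales. PTGS2 was highest at the 6 hr allergen sites, with means of 8.77 and 8.08, and the PTGS1 means stayed between 9.76 and 10.36.

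In untreated skin neither enzyme differed between the dogs beyond the spread of the arrays. PTGS2 had a lowest, median and highest value of 5.85, 6.33 and 7.14 in the sensitized dogs and of 5.98, 6.54 and 7.36 in the nonsensitized dogs. The ranges overlapped almost wholly, and the difference was -0.17 ± 0.45 (SE, adjusted p = 1.0, limma). With slide as a fixed or random block it was -0.57 or -0.37, and neither was called. For PTGS1 the values were 9.35, 9.82 and 10.18 in sensitized and 9.41, 9.87 and 10.53 in nonsensitized dogs, with a difference of -0.18 ± 0.22 (SE, adjusted p = 1.0). The 95% intervals of these differences, from -1.08 to 0.73 for PTGS2 and from -0.62 to 0.25 for PTGS1, say which sizes the arrays leave possible. Of all probes, 0.00218% passed this comparison.

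At 6 hr the comparison of allergen with saline sites asks what the mite paste adds to patch, bandage and shaving. PTGS2 was 5.9-fold higher at the allergen sites of the sensitized dogs. Its levels there were 8.77 ± 1.01 (SD, n = 6), with dogs at 10.07, 10.02, 8.40, 8.09, 8.09 and 7.92. At the saline sites they were 6.21 ± 0.20 (SD, n = 6), from 5.87 over a median of 6.29 to 6.38. Every allergen value lay above every saline value, and the allergen sites fell apart into 2 high dogs (2838 and 2855) and 4 at intermediate levels. Allergen arrays of the 2 high dogs lay on slide 6 and those of the other 4 on slides 5 and 7. Dog and slide therefore cannot be told apart in this split. Before scaling, the processed signals of the probe were 232 to 919 at allergen sites and 36.3 to 64.4 at saline sites. The difference of 2.56 ± 0.45 (SE) had an adjusted p of 0.00128 (limma), a comparison in which 0.42% of all probes were called, 186 higher and 7 lower. PTGS2 was higher at the allergen site in 6 of 6 dogs, by 1.59 to 3.75. In the 5 dogs with both arrays on the same slide the mean difference was 2.63. On slide 5 it was 1.90 (3 allergen and 3 saline arrays) and on slide 6 it was 3.88 (2 and 3 arrays). The call was lost when the 6 hr arrays were fitted without the others (2.56, adjusted p = 0.124) and in a test against a 1.5-fold change (adjusted p = 0.104), and it stood without each dog in turn.

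In the nonsensitized dogs the 6 hr allergen sites spread far more widely. PTGS2 ranged from 6.17 over a median of 7.77 to 10.07 at the allergen sites and from 6.03 over 6.46 to 8.66 at the saline sites. The groups overlapped, since dog 2845 had 6.17 at its allergen site and dog 2716 had 8.66 at its saline site. The allergen site was the higher one in 5 of 6 dogs, by 3.18 in dog 2704 at most, with -0.20 in dog 2845. The difference of 1.16 ± 0.45 (SE, 2.23-fold) had an unadjusted p of 0.0131 and an adjusted p of 0.899 (limma), it was 0.75 without dog 2704, and 0.0348% of all probes were called in this comparison. In the 2 dogs with both arrays on the same slide the mean was 0.42, while slide 4, with 4 allergen and 3 saline arrays, gave 1.95.

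Whether the response of the sensitized dogs exceeded that of the controls was tested as the difference of these differences. For PTGS2 it was 1.40 ± 0.64 (SE, 95% interval 0.13 to 2.68), with an unadjusted p of 0.032 and an adjusted p of 1.0 (limma). No probe of the 45972 was called in this test, and 522 had an unadjusted p below 0.05. A larger PTGS2 response in sensitized dogs was thus not shown at 6 hr, although their mean was the higher one.

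PTGS1 at the same sites gave smaller differences, with signs that varied from dog to dog. In the sensitized dogs it was 9.70, 9.82 and 9.91 (lowest, median, highest) at allergen and 9.80, 10.02 and 10.47 at saline sites. The difference was -0.25 ± 0.22 (SE, 95% interval -0.68 to 0.19, adjusted p = 0.887), and the second probe gave -0.18 ± 0.19. In the nonsensitized dogs the brighter probe gave -0.12 ± 0.22 (SE, 95% interval -0.55 to 0.32, adjusted p = 0.986). PTGS1 was higher at the allergen site in 2 of 6 sensitized and in 3 of 6 nonsensitized dogs. Within a dog, the change of PTGS2 exceeded that of PTGS1 in 6 of 6 sensitized dogs, by 2.81 ± 1.12 (SD), and in 5 of 6 nonsensitized dogs, by 1.27 ± 1.51 (SD). PTGS2 was called in sensitized dogs at this time, and PTGS1 was not detectably different in either group.

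**Figure D2:**
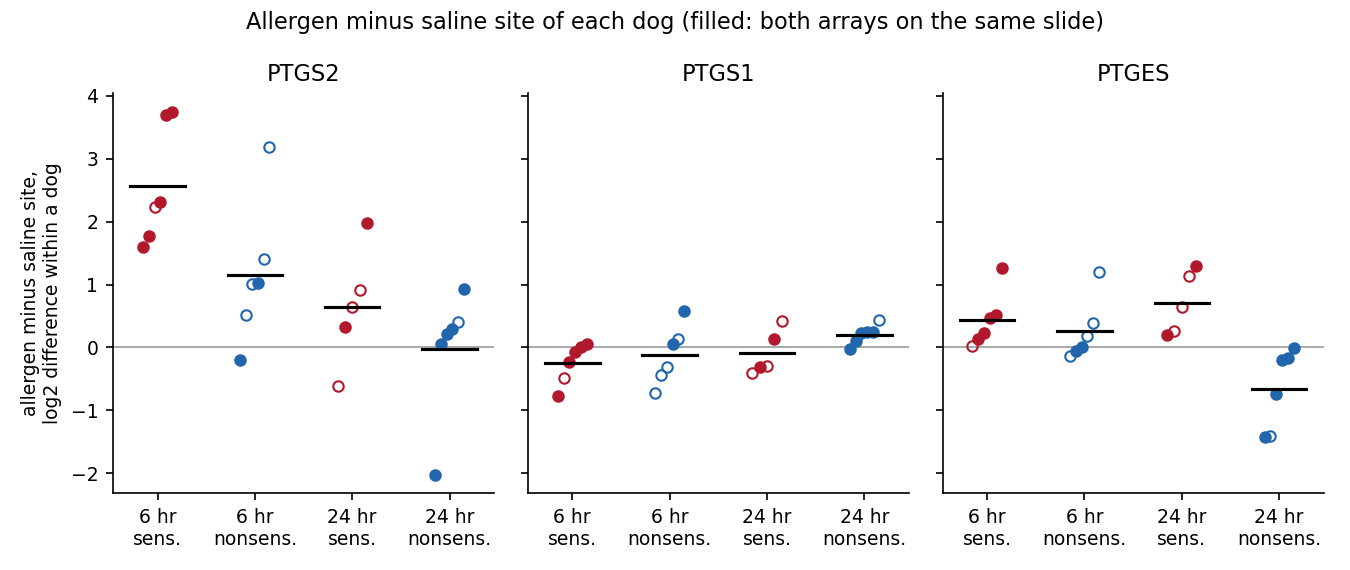
Log2 difference between the allergen and the saline site of each dog (vertical axis) at 6 hr and 24 hr for sensitized (red) and nonsensitized (blue) dogs, in panels for PTGS2, PTGS1 and PTGES. Circles are dogs, filled where both arrays lay on the same slide, and black lines are means over the 5 or 6 dogs. At 6 hr all 6 sensitized dogs lie above 0 for PTGS2, and at 24 hr PTGES at its brighter probe lies above 0 in 5 of 5 sensitized and below 0 in 6 of 6 nonsensitized dogs, by -0.01 in the nearest.

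The nonsensitized dogs also differed among themselves in PTGS1 at the 6 hr allergen sites, which was noticed after the values were seen. Dogs 2704 and 2716 had the highest PTGS2 there (9.64 and 10.07) and the lowest PTGS1 (9.39 and 9.23). The other 4 dogs had PTGS2 of 6.17 to 8.08 with PTGS1 of 10.42 to 10.88. Dogs 2704 and 2716 also had the lowest PTGS1 of their group at the other patch sites, with 9.83 and 9.95 for 6 hr saline, 9.74 and 9.81 for 24 hr saline, and 9.97 and 10.06 for 24 hr allergen. These dogs were thus the lowest pair at each of the 4 patch sites, but not in untreated skin, where dog 2716 had 9.41, dog 2845 had 9.76 and dog 2704 had 9.79.

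At 24 hr PTGS2 was not called between allergen and saline sites in either group of dogs. In the sensitized dogs the 5 allergen sites had 7.57, 7.86, 7.87, 7.32 and 8.25, and the 6 saline sites ranged from 6.27 over 7.11 to 8.18. The ranges overlapped, and the difference was 0.63 ± 0.47 (SE, 95% interval -0.32 to 1.58, adjusted p = 0.727, limma), or 0.34 without dog 2855. Slide 3, with 3 arrays of each site, gave 0.88. Of the 5 dogs with both sites, 4 had the higher PTGS2 at the allergen site and dog 2838 had a difference of -0.61. In the nonsensitized dogs the allergen sites lay within a narrow band, 7.19 to 7.60, and the saline sites ran from 6.45 over 7.20 to 9.45. The difference was -0.02 ± 0.45 (SE, adjusted p = 0.998). It became 0.38 (adjusted p = 0.956) without dog 2847, which had 9.45 at its saline site. The difference of differences was 0.66 ± 0.65 (SE, 95% interval -0.65 to 1.97, adjusted p = 0.765). It was 0.25 without dog 2847 and 0.36 without dog 2855. The shares of all probes called in these 3 comparisons were 0.274%, 0.766% and 0.94%.

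PTGS1 at 24 hr ranged from 9.59 to 10.10 at allergen and from 9.46 to 10.52 at saline sites of sensitized dogs, a difference of -0.09 ± 0.23 (SE, adjusted p = 0.977). In nonsensitized dogs it ranged from 9.97 to 10.75 and from 9.74 to 10.55, a difference of 0.20 ± 0.22 (SE, adjusted p = 0.883). The allergen site was higher in 5 of 6 nonsensitized dogs, by 0.43 at most. The difference of differences was -0.29 ± 0.31 (SE, 95% interval -0.92 to 0.34, adjusted p = 0.794).

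Against untreated skin, PTGS2 rose at the allergen sites of both groups of dogs at 6 hr and at those of the sensitized dogs at 24 hr. These comparisons share the 0 hr arrays of a group. In sensitized dogs the 6 hr allergen sites were 2.39 ± 0.45 higher (SE, 5.26-fold, adjusted p = 0.00032, limma, with 3.87% of all probes called). All 6 dogs were higher, by 1.42 to 4.18, and no allergen value reached down to the highest untreated value of 7.14. In nonsensitized dogs the 6 hr allergen sites were 1.54 ± 0.45 higher (SE, 2.90-fold, adjusted p = 0.0297, 1.61% of probes called). Here 5 of 6 dogs were higher, the ranges overlapped, and the call ended without dog 2704 (1.27, adjusted p = 0.202) and without dog 2716 (1.05, adjusted p = 0.215). With slide as a fixed block these values were 1.84 (adjusted p = 0.0982) and 1.23 (adjusted p = 0.814), and neither was called. With slide as a random block they were 2.23 (adjusted p = 0.00272, called) and 1.41 (adjusted p = 0.212). Within slides, where few arrays met, sensitized dogs had differences of 2.91 and 2.13 on slides 6 and 7, and nonsensitized dogs had 0.42 on slide 8. The mean level of the neutrophil markers S100A8 and CXCR2, centered on all arrays, was above that of untreated skin at these sites of sensitized dogs, and higher at 24 hr than at 6 hr, where PTGS2 had its higher mean. It ran from -1.23 to -0.16 in untreated skin, from -0.34 to 1.24 at the 6 hr allergen sites and from 1.19 to 1.79 at the 24 hr allergen sites. S100A8, which keratinocytes also make, was higher than in untreated skin there by 2.48 and 4.82 (adjusted p = 0.00709 and 4.99e-07), and CXCR2 had 0.01 and 0.12 (adjusted p = 0.961 and 0.391). In nonsensitized dogs these markers ran from -1.40 to 0.45 in untreated skin and from -1.40 to 1.54 at the 6 hr allergen sites. The macrophage marker CD163 ran from -1.08 to -0.08 in untreated skin and from -0.16 to 1.24 at the 24 hr allergen sites of sensitized dogs. The part of these markers in the rise of PTGS2 was not tested.

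At the saline sites of 6 hr PTGS2 was not detectably different from untreated skin. The differences were -0.17 ± 0.45 in sensitized and 0.38 ± 0.45 in nonsensitized dogs (SE, adjusted p = 0.853 and 0.632), where 2.65% and 2.27% of all probes were called. The second value rests on dog 2716, since it was -0.06 without it. With slide as a fixed or random block the values were -0.98 or -0.44 in sensitized and -0.33 or 0.13 in nonsensitized dogs. None of these was called. At 24 hr the saline sites were 0.77 ± 0.45 above untreated skin in sensitized dogs (SE, adjusted p = 0.185) and 0.88 ± 0.45 in nonsensitized dogs (SE, adjusted p = 0.095). The saline site was the higher one in 6 of 6 and in 5 of 6 dogs, and 9.48% and 22.7% of all probes were called. With the dog as a fixed block the second difference was called (adjusted p = 0.0472), as it was with the dog as a random block (adjusted p = 0.0457). With slide as a fixed or random block it fell to 0.27 (adjusted p = 0.926) or 0.57 (adjusted p = 0.427) and was not called. The allergen sites of 24 hr were 1.40 ± 0.47 above untreated skin in sensitized dogs (SE, 2.65-fold, adjusted p = 0.0156, 13.7% of probes called), where the lowest allergen value of 7.32 was still above the highest untreated value of 7.14. This call ended without dog 2841 (1.37, adjusted p = 0.0556), without dog 2855 (1.18, adjusted p = 0.078) and with slide as a fixed block (1.55, adjusted p = 0.205), but not with slide as a random block (1.49, adjusted p = 0.0175). On slide 8, the only one that held both, the difference was 1.48 between 1 allergen array and 3 untreated arrays. In nonsensitized dogs the 24 hr allergen sites were 0.86 ± 0.45 higher (SE, adjusted p = 0.115, 17% of probes called), with the higher value at the allergen site in 6 of 6 dogs. With slide as a fixed or random block this difference was 0.16 or 0.50.

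From 6 hr to 24 hr, PTGS2 at the allergen sites differed by -0.99 ± 0.47 in sensitized dogs (SE, adjusted p = 0.208) and by -0.68 ± 0.45 in nonsensitized dogs (SE, adjusted p = 0.271). It was lower at 24 hr in 5 of 5 sensitized dogs, with differences of -0.23 to -2.5, and in 4 of 6 nonsensitized dogs. The second value was -0.35 without dog 2704, -0.32 without dog 2716 and -1.05 without dog 2845. At the saline sites the same step was 0.94 ± 0.45 in sensitized dogs (SE, adjusted p = 0.19) and 0.50 ± 0.45 in nonsensitized dogs (SE, adjusted p = 0.418), the latter 0.88 without dog 2716 and 0.23 without dog 2847. None of these 4 values passed the test, and 2.06%, 8.09%, 2.58% and 9.57% of all probes were called in these comparisons. Each sets arrays of different slides against each other. With slide as a fixed block the allergen steps were -0.29 in sensitized and -1.07 in nonsensitized dogs, and the saline steps 1.78 and 0.59. With slide as a random block these were -0.75, -0.91, 1.24 and 0.44, and none was called under either block.

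PTGS1 passed no comparison with untreated skin or between times. The value nearest to the limit was at the 24 hr allergen sites of nonsensitized dogs, 0.42 ± 0.22 above untreated skin (SE, 95% interval -0.01 to 0.86, unadjusted p = 0.0572, adjusted p = 0.108), and the second probe gave 0.23 ± 0.19. That site was higher than the untreated skin in 6 of 6 dogs, by 0.11 to 0.81. On unscaled signals the difference was 0.95 (adjusted p = 0.000561), where the median of all probes moved by 0.49. At the 6 hr saline sites PTGS1 was 0.39 ± 0.22 (SE, adjusted p = 0.255) above untreated skin in nonsensitized dogs, with 6 of 6 dogs higher, and 0.30 ± 0.22 (SE, adjusted p = 0.384) in sensitized dogs.

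**Figure D3:**
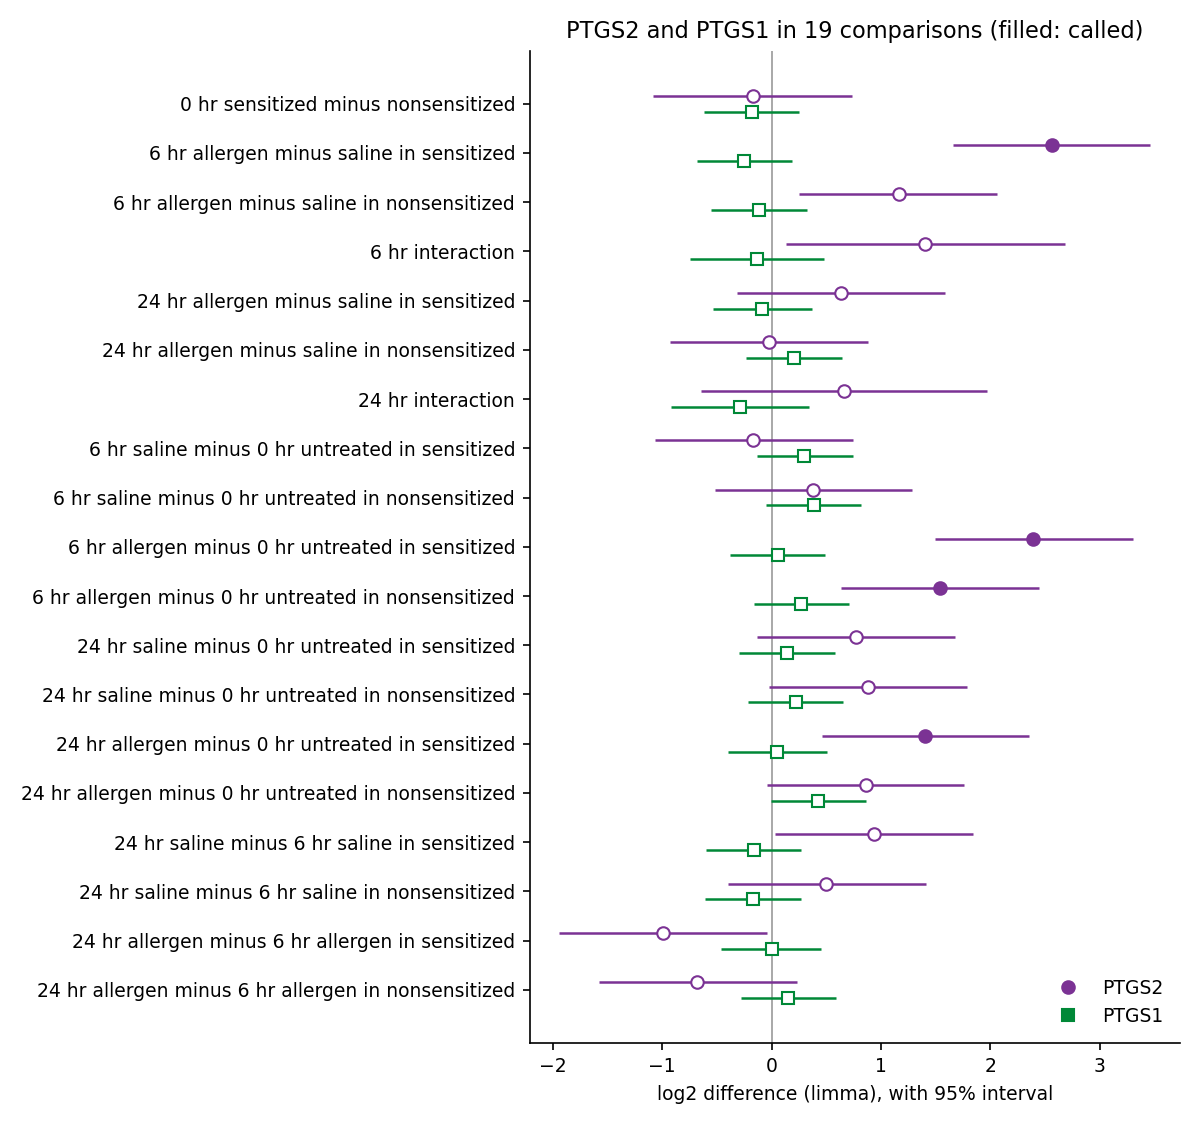
Log2 differences of PTGS2 (circles) and PTGS1 at its brighter probe (squares) from limma, with 95% intervals as lines, for the 19 comparisons listed on the vertical axis. An interaction is the allergen minus saline difference of sensitized dogs minus that of nonsensitized dogs. Filled symbols passed the test: PTGS2 did so in 4 comparisons, with values from 1.40 to 2.56, and no PTGS1 symbol is filled.

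Ordered by level, PTGS2 ran from the 6 hr allergen sites of sensitized dogs (8.77) and of nonsensitized dogs (8.08) over the 4 groups of 24 hr (7.78 to 7.14) and the 6 hr saline sites of nonsensitized dogs (6.92) to untreated skin (6.54 and 6.37) and the 6 hr saline sites of sensitized dogs (6.21). No neighbours in this order differed beyond the spread of their arrays. For PTGS1 the highest 4 groups were the patch sites of nonsensitized dogs (10.36 to 10.16), and the lowest was untreated skin of sensitized dogs (9.76), again with no neighbours apart.

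Of 37 other genes of prostaglandin metabolism and signaling that had been listed, 12 could be named on the array and 11 of these passed the filter on dim probes (AKR1C3 did not). Each was read at its brightest probe. At 6 hr none of the 11 was called between allergen and saline sites in either group of dogs, with medians of 0.01 in sensitized and 0.05 in nonsensitized dogs beside -0.00 and 0.01 over all probes. At 24 hr none was called in either group of dogs, and 1 was called in the difference of differences, where 0.94% of all probes passed.

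That gene was PTGES, microsomal prostaglandin E synthase-1, which turns prostaglandin H2 into prostaglandin E2 and is known to be induced together with PTGS2. At 24 hr it had 12.30, 12.65, 12.00, 12.27 and 12.27 at the allergen sites of sensitized dogs and 10.98 over 11.66 to 12.07 at their saline sites. In nonsensitized dogs the order was turned, with 11.13 over 11.58 to 11.87 at allergen and 11.78 over 12.09 to 12.78 at saline sites. All 5 sensitized dogs had more PTGES at their allergen site, with differences of 0.20 to 1.29, and all 6 nonsensitized dogs had less at the brighter probe, with differences of -0.01 to -1.43. At the second probe dog 2716 had the higher level at the allergen site (11.66 against 11.60), so that 5 of 6 had less. The difference of differences was 1.35 ± 0.27 (SE, 2.56-fold, adjusted p = 0.00862, limma), and the second probe gave 1.34 ± 0.26 (SE, adjusted p = 0.00824). Some markers of other cells moved at the same sites, and not the same ones in both groups of dogs. In sensitized dogs the neutrophil markers, the mean of S100A8 and CXCR2, ran from 1.19 to 1.79 at allergen and from -0.07 to 0.88 at saline sites. Against untreated skin S100A8, which keratinocytes also make, was called at these allergen sites and CXCR2 was not, as given above. The 3 of 5 T cell markers ran from 0.11 to 0.44 and from -0.15 to 0.21. Among them CD28 was well above background on only 33 of 59 arrays. CD163 overlapped in these dogs, from -0.16 to 1.24 at allergen and from -0.20 to 1.31 at saline sites. In nonsensitized dogs CD163 ran from -0.29 to 0.97 at allergen and from 0.41 to 1.94 at saline sites, and the 4 of 6 mast cell markers from -0.37 to 0.32 and from -0.03 to 0.99. The neutrophil markers overlapped in these dogs, from -0.47 to 1.02 at allergen and from -0.12 to 1.09 at saline sites. The 2 of 8 keratinocyte markers had the opposite order to PTGES there, from -0.06 to 0.53 at allergen and from -0.50 to 0.07 at saline sites. The part of these markers in the PTGES difference was not tested. Without dog 2800, 2802 or 2855 the value was 1.21, 1.2 or 1.24 and the adjusted p was 0.0546, 0.0543 or 0.0637.

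Taken by group of dogs, the PTGES difference at 24 hr was 0.69 ± 0.20 in sensitized dogs (SE, adjusted p = 0.0889) and -0.66 ± 0.19 in nonsensitized dogs (SE, adjusted p = 0.0532). Within slides, PTGES differed by 0.68 on slide 3 (3 allergen and 3 saline arrays of sensitized dogs) and by -0.39 on slide 1 (4 and 3 arrays of nonsensitized dogs). With the dog as a random block both were called, at 0.68 (adjusted p = 0.0266) and -0.66 (adjusted p = 0.0159). At the same time PTGS2, upstream of PTGES, gave the uncalled difference of differences of 0.66 described above. At 6 hr PTGES differed between allergen and saline sites by 0.44 ± 0.19 in sensitized and 0.27 ± 0.19 in nonsensitized dogs (SE, adjusted p = 0.394 and 0.96). Over the 59 arrays the correlation of PTGES with PTGS2 was r = 0.47.

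**Figure D4:**
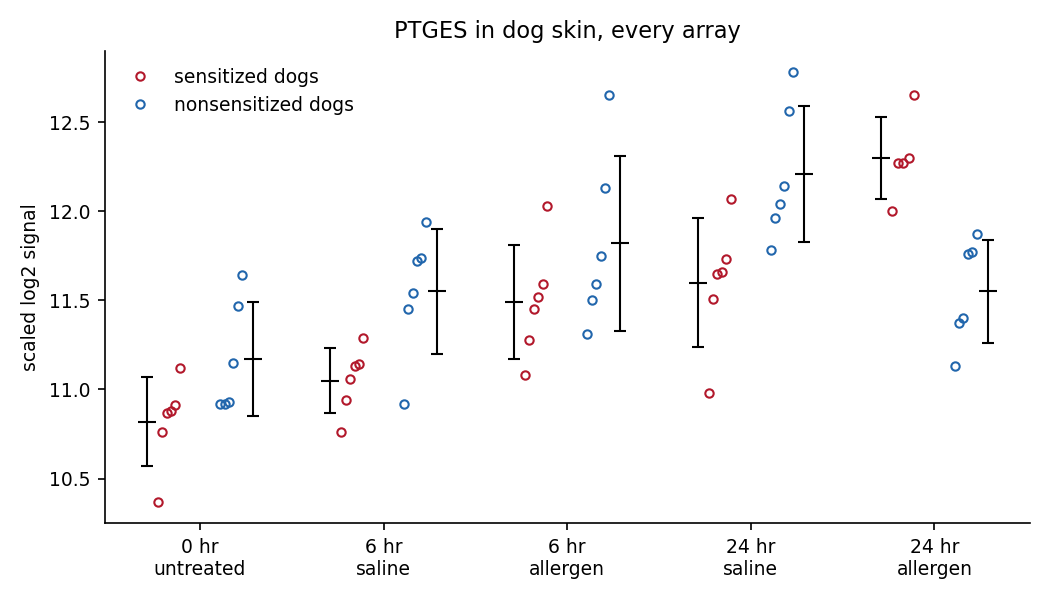
Scaled log2 signal of PTGES at its brighter probe (vertical axis) in each of the 10 groups along the horizontal axis. Circles are arrays, red for sensitized and blue for nonsensitized dogs, and black bars show the mean with its SD (n = 6, or n = 5 for 24 hr allergen of sensitized dogs). At 24 hr the mean was 12.30 at allergen and 11.60 at saline sites of sensitized dogs, and 11.55 and 12.21 in nonsensitized dogs.

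Against untreated skin PTGES rose at the allergen sites of 6 hr and at the saline sites of 24 hr in both groups of dogs. It was higher at the 6 hr allergen sites by 0.67 ± 0.19 in sensitized and 0.65 ± 0.19 in nonsensitized dogs (SE, adjusted p = 0.0098 and 0.0267). At 24 hr it was higher at saline sites by 0.78 ± 0.19 and 1.04 ± 0.19 (SE, adjusted p = 0.00113 and 7.07e-06), and at the allergen sites of sensitized dogs by 1.48 ± 0.20 (SE, adjusted p = 1.26e-07). These 24 hr comparisons called 9.48%, 22.7% and 13.7% of all probes, and no slide held both 24 hr saline and untreated arrays. Within slides, the 6 hr value of sensitized dogs was 1.4 on slide 6 (2 allergen arrays and 1 untreated array) and 0.19 on slide 7 (1 and 2 arrays), that of nonsensitized dogs was 0.54 on slide 8 (2 and 1), and the 24 hr allergen value of sensitized dogs was 1.72 on slide 8 (1 and 3). In sensitized dogs the neutrophil markers ran from -1.23 to -0.16 in untreated skin and from -0.07 to 0.88 at the 24 hr saline sites. They are the mean of CXCR2 and of S100A8, which keratinocytes also make. CD163 ran from -1.08 to -0.08 and from -0.20 to 1.31. In nonsensitized dogs CD163 ran from -1.40 to 0.16 in untreated skin and from 0.41 to 1.94 at the 24 hr saline sites, and the mast cell markers from -0.86 to 0.26 and from -0.03 to 0.99. The part of these markers in the rise of PTGES was not tested. At the 24 hr allergen sites of nonsensitized dogs the probes disagreed, with 0.38 (adjusted p = 0.0937) at the brighter and 0.59 (adjusted p = 0.00685) at the second probe. Between 6 hr and 24 hr PTGES rose at the allergen sites of sensitized dogs by 0.81 ± 0.20 (SE, adjusted p = 0.00798), while PTGS2 had the uncalled -0.99 there. At saline sites PTGES rose by 0.66 ± 0.19 in nonsensitized dogs (SE, adjusted p = 0.00556). In sensitized dogs the saline step was 0.55 ± 0.19 (SE, 1.46-fold, not called), and the second probe was called (0.65, adjusted p = 0.0172). These steps set arrays of different slides against each other.

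The receptors of prostaglandin E2 that could be named were PTGER2 and PTGER4, which raise cyclic AMP. Neither was called between allergen and saline sites at either time. PTGER4 had 0.30 ± 0.10 at 6 hr in sensitized dogs (SE, adjusted p = 0.208). At the 24 hr saline sites of nonsensitized dogs PTGER4 was 0.68 ± 0.10 above untreated skin (SE, adjusted p = 3.01e-07). In this comparison 22.7% of all probes were called, and no slide held arrays of both groups. PTGER2 was a dim probe, well above background on 37 of 59 arrays and on only 3 of 6 arrays in each group of untreated skin. It passed the filter only through the 24 hr groups, so its differences from untreated skin are a description. PTGER2 ran from 3.76 to 4.99 in untreated skin and from 5.11 to 5.82 at the 24 hr allergen sites of sensitized dogs. The nonsensitized dogs had 4.25 to 5.11 in untreated skin and 5.10 to 5.56 at the 24 hr saline sites.

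Counted over the list, more genes were called between 24 hr and untreated skin than between patch sites. The same was so over all probes, with 9.48% to 22.7% called beside 0.274% and 0.766% between the patch sites of 24 hr. This order is therefore no result about these genes. Apart from 1 allergen array, the comparisons with untreated skin also set arrays of different slides against each other. At the 24 hr allergen sites of sensitized dogs 2 of the 11 genes were higher and 3 lower (7.61% and 6.13% of all probes). At the 24 hr saline sites 1 was higher and 3 lower in sensitized dogs (4.35% and 5.14%), and 4 were higher and 2 lower in nonsensitized dogs (9.89% and 12.8%). At the 24 hr allergen sites of nonsensitized dogs 0 were higher and 2 lower (5.73% and 11.3%). PTGER2, which passed the filter only through its levels at 24 hr, is 1 of the higher genes at the 24 hr allergen sites of sensitized and at the 24 hr saline sites of nonsensitized dogs, and these counts lend it no support. Lower at all 4 patch groups of 24 hr were PTGDS, prostaglandin D synthase (-0.83 to -1.23), and SLCO2A1, the prostaglandin uptake transporter (-0.72 to -1.26). Differences of both between allergen and saline sites at the same time were not called. PTGDR2, a receptor of prostaglandin D2, was lower than in untreated skin at all 4 patch groups of the sensitized dogs, with differences of -0.77 to -0.91, and was not called in the nonsensitized dogs, a difference between the dogs that was not tested. For PLA2G1B, a secreted phospholipase, only a second probe was lower at the 24 hr sites of nonsensitized dogs, with -0.81 at allergen and -0.78 at saline sites.

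**Figure D5:**
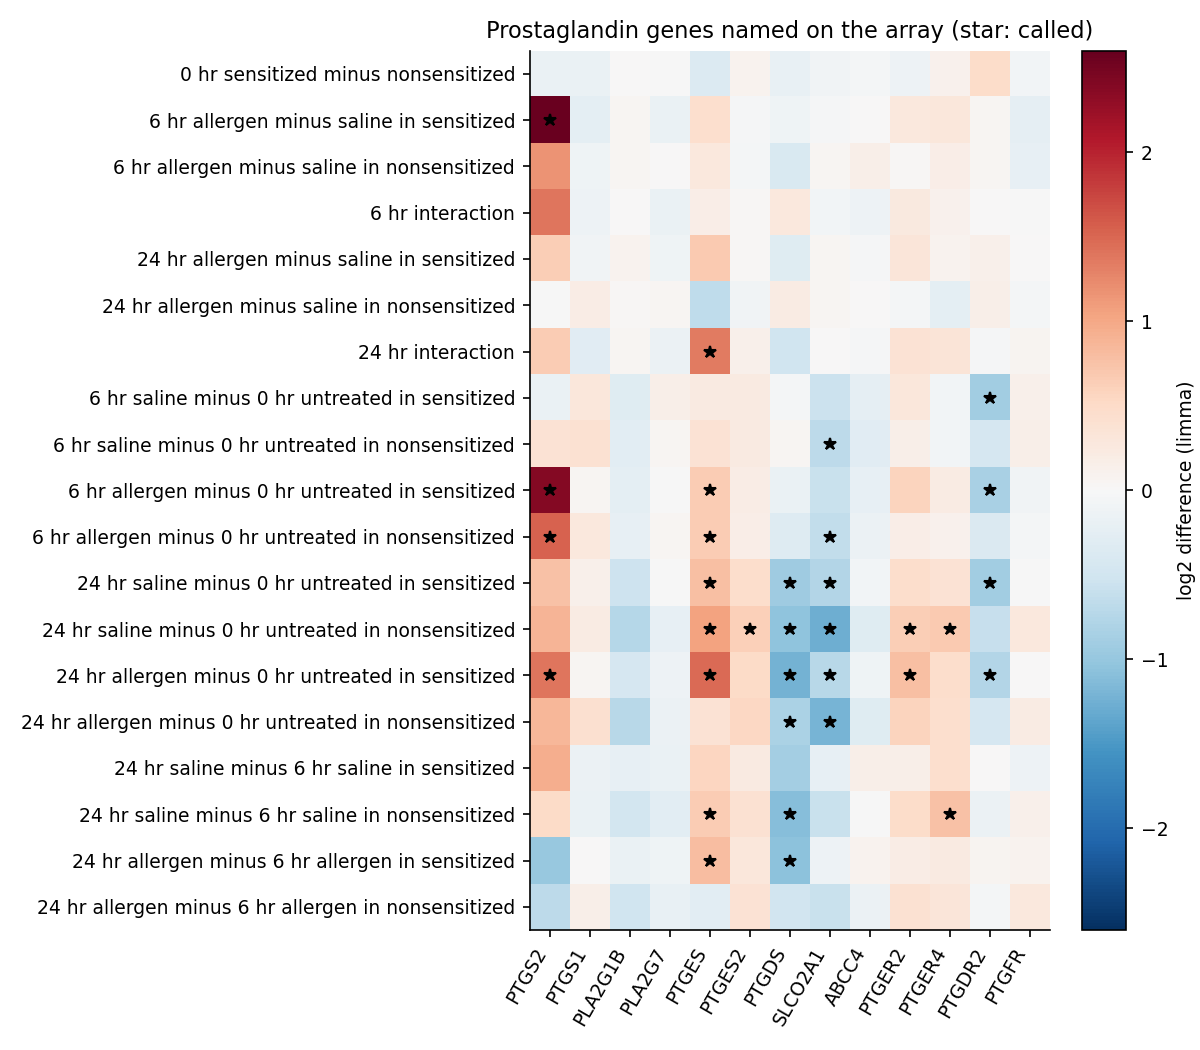
Log2 differences from limma (color scale) of PTGS2, PTGS1 and the 11 other prostaglandin genes that passed the filter (horizontal axis), each at its brightest probe, in the 19 comparisons (vertical axis). A star marks a gene called in that comparison; the PTGER2 probe passed the filter only through the 24 hr groups. PTGS2 carries stars at allergen sites and PTGS1 carries none. PTGDS and SLCO2A1 are lower than untreated skin in all 4 groups of 24 hr.

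Genes known as inducers or as immediate early genes were listed beside PTGS2, and 8 of 24 could be named. IL1B was too dim to be kept, which left 7. At 6 hr, between allergen and saline sites of sensitized dogs, 3 of the 7 were higher (0.405% of all probes were) and none was lower, with a median of 0.51 beside -0.00 over all probes. These were IL6, a cytokine of acute inflammation, by 2.78 ± 0.53 (SE, adjusted p = 0.00282), the transcription factor MYC by 1.01 ± 0.20 (SE, adjusted p = 0.00356), and the orphan nuclear receptor NR4A1 by 0.82 ± 0.15 (SE, adjusted p = 0.00211). IL6 was low at these saline sites, 4.17 to 4.46, and had 5.59 to 8.71 at the allergen sites. It may have passed the filter only through groups where it was high. Its difference is therefore a description, and its place in this count lends no support. IL1A, which signals to induce PTGS2, had 0.51 ± 0.19 (SE, adjusted p = 0.257) and TNF had 0.16 ± 0.10 (SE, adjusted p = 0.73). In nonsensitized dogs none of the 7 was called.

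The genes whose arrays ran most like PTGS2, among 897 named genes and over the 59 arrays, were CCL20 (r = 0.83), CXCL8 (r = 0.82), MYC (r = 0.81), SELE (r = 0.78) and IL6 (r = 0.76). CCL20 and CXCL8 are chemokines of lymphoid cells and neutrophils, and SELE is an adhesion molecule of activated endothelium. After the group means were removed these correlations were 0.80, 0.74, 0.75, 0.65 and 0.78, so that arrays of the same group with more PTGS2 also had more of these genes. These genes were picked for running like PTGS2 on the same arrays, so their 6 hr differences between allergen and saline sites of sensitized dogs are a description with no test: 2.47 for SELE, 2.75 for CCL20 and 3.09 for CXCL8.

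The genes most like PTGS1 were MAPT (r = 0.71), KRT1 (r = 0.70), KRT2 (r = 0.68), TSHR (r = 0.67) and YBX3 (r = 0.66). KRT1 and KRT2 are keratins of the upper epidermis and MAPT is the microtubule protein tau. Without the group means the correlations were 0.70, 0.68, 0.66, 0.64 and 0.56. All arrays come from 12 dogs and share slides, so these values describe the arrays and no more.

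Markers of other cell types were read beside PTGS2. Of 52 listed markers 20 could be named and all 20 passed the filter, and none was called at 6 hr between allergen and saline sites of sensitized dogs, where 0.42% of all probes were, so that this count says nothing about the markers. The neutrophil list kept 2 of 6 markers, CXCR2 and S100A8, a calcium-binding protein that keratinocytes also make. Their mean level, centered on all arrays, ran from -1.27 to -0.10 at the 6 hr saline and from -0.34 to 1.24 at the 6 hr allergen sites of sensitized dogs. S100A8 had 2.28 ± 0.66 (SE, adjusted p = 0.101) and CXCR2 had 0.21 ± 0.10 (SE, adjusted p = 0.513). The keratinocyte list, with 2 of 8 markers, ran from -0.03 to 0.40 at saline and from -0.34 to 0.13 at allergen sites. The single macrophage marker, CD163, ran from -0.75 to -0.17 and from -0.85 to -0.02, and the 4 of 6 mast cell markers from -0.74 to 0.22 and from -0.51 to 0.16. The part of these markers in the PTGS2 difference was not tested.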

How the data were processed

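Total RNA of the biopsies had been labeled with Cy3 and hybridized to one-color canine arrays. The deposited intensity values are processed signals, which the authors made with Agilent Feature Extraction 10.7.3.1 by background subtraction, and they are not scaled between arrays. In 2 files the signals are rounded and no header is given. Of 61657 spots, 47229 were kept, those well above background on 5 or more arrays in any group, and outlier spots were set to missing. Variance stabilization was reimplemented after the vsn model (tested on simulated data), since that package was not installed. Spots of a probe were averaged, and the brightest probe stood for a gene. The package limma 3.58.1 (R 4.3.3) fitted the 10 group means, unpaired as in the study's methods, with Benjamini-Hochberg adjustment over 45972 probes. Figures used matplotlib 3.10.9.

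Names came from RefSeq accessions, which named 1080 identifiers of the array. Genes named in the text were PTGS1 and PTGS2, pathway genes called in comparisons of sensitization or patch, PTGES, PTGER2 and PTGER4, and the 5 genes most correlated with each enzyme. The other genes of the lists were named after their values were seen. The members and lists were chosen with earlier results of these data known. The 4 comparisons of 24 hr with 6 hr were added after the data were seen. The alternatives were other scalings, filters and background correction, all 60 arrays, dog or slide as a block, separate fits, a test against 1.5-fold, the mean over probes and each dog left out. The dog numbers pair the arrays: the deviations of arrays from their group means correlated within a dog with a median of 0.39 (116 pairs) and between dogs with -0.03 (1450 pairs). The number of arrays limits the precision of each value.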

Additional observations from a re-analysis of the deposited data

Results flagged for a closer look

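Among 50 sets of arrays, each 1 gene in 1 group, a single array stood apart in 2, and chance alone sets apart about 1 in 20. PTGS2 at the 24 hr saline sites of nonsensitized dogs was 9.45 in dog 2847, while the other 5 dogs had 6.45 to 7.30. PTGER2 at the 24 hr allergen sites of sensitized dogs was 5.82 in dog 2853, while the others had 5.11 to 5.29. For PTGES the allergen minus saline difference at 24 hr differed between sensitized and nonsensitized dogs by 1.35 ± 0.27 (SE, adjusted p = 0.00862, limma), with 5 of 5 sensitized dogs above 0 and 6 of 6 nonsensitized dogs below 0 at the brighter probe. At the second probe 5 of 6 nonsensitized dogs were below 0.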

How the results depend on the processing

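For the 41 PTGS1 and PTGS2 differences and counts of pathway genes, 983 values under alternatives kept their direction and side of the threshold or stayed within 1.5 times the count, 15 lost a call, 10 gained one, 20 changed sign and 14 counts moved. For PTGS2, the 6 hr allergen minus saline difference of sensitized dogs was called under 11 of 13 settings and without each of the 12 dogs (2.32 to 2.75), but not in a separate fit (2.56, adjusted p = 0.124) or against 1.5-fold (2.56). The 6 hr allergen sites against untreated skin lost the call in sensitized dogs with slide as a fixed block (1.84) and against 1.5-fold (2.39). In nonsensitized dogs they lost it unscaled (1.62), with slide as a fixed (1.23) or random block (1.41), against 1.5-fold (1.54) and in a separate fit (1.54), and ran from 1.05 to 1.91 without single dogs. The 24 hr allergen sites of sensitized dogs against untreated skin lost it with slide as a fixed block (1.55) and against 1.5-fold (1.40), and ran from 1.18 to 1.61 without single dogs. Calls were gained in nonsensitized dogs at 24 hr for saline against untreated skin, unscaled (1.47), with the dog as a fixed or random replicate block (0.88 in both) and in a separate fit (0.88), for allergen against untreated skin, unscaled (1.42) and in a separate fit (0.86), and in sensitized dogs for 24 hr against 6 hr saline, unscaled (1.45). Uncalled PTGS2 values changed sign for 24 hr allergen minus saline in nonsensitized dogs with 75th percentile scaling (0.05) or quantile normalization (0.01) and without single dogs (-0.21 to 0.38), and for 6 hr saline against untreated skin in nonsensitized dogs with slide as a fixed block (-0.33) and without single dogs (-0.06 to 0.51). PTGS1 was called only on unscaled signals, in nonsensitized dogs at 24 hr for saline (0.81) and allergen (0.95) against untreated skin and for allergen against 6 hr (0.67). There the median of all probes moved by 0.51, 0.49 and 0.48. Uncalled PTGS1 values changed sign unscaled for 24 hr against 6 hr at saline sites of sensitized (0.16) and nonsensitized dogs (0.37) and at allergen sites of sensitized dogs (0.28), the last also with quantile normalization (0.00), the mean over probes (0.03) and without single dogs (-0.07 to 0.07), and for the 6 hr difference of differences with slide as a fixed block (0.03) and without single dogs (-0.25 to 0.01). Without single dogs they also did so for 6 hr allergen minus saline in nonsensitized dogs (-0.26 to 0.00) and for allergen sites of sensitized dogs against untreated skin at 6 hr (-0.03 to 0.14) and 24 hr (-0.05 to 0.13). The count of pathway genes called at 24 hr between allergen and saline, 0 in both groups, became 1, PTGES in each case, in sensitized dogs with all 60 arrays and with the dog as a fixed or random replicate block, and in nonsensitized dogs unscaled, with the dog as either block, with slide as a random block and without dogs 2704, 2716 or 2838 (0 to 1). The PTGES difference of differences was not called against 1.5-fold (1.35, a count of 0) and ran from 1.2 to 1.48 without single dogs (counts 0 to 1). The replicate block changed no other call of these results. The number of all probes called ran from 9 to 415 for 6 hr allergen minus saline in sensitized dogs (193 in the reported fit) and from 0 to 1628 for the 24 hr difference of differences (432). Except where scaling shifted all probes, the cause of these changes was not tested. The comparison at 0 hr is between dogs and has no value with the dog as a fixed replicate block.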

Other observations

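Specimen 14, the excluded 24 hr allergen site of dog 2839, was read after scaling all 60 arrays together. The study had left it out for poor RNA integrity, weak signal and low correlation with the other samples. Its median processed signal was 70.97, below that of every other array (81.7 to 146.12). Its levels cannot be told apart from this quality. They and the fits that include it are a description and lend no support to other results. PTGS2 was 6.56 there, below the other 5 dogs of the group (7.29 to 8.23), while PTGES was 13.19, above them (11.99 to 12.64). PTGS1 was 9.56, beside 9.58 to 10.09. With this array included, the PTGS2 difference between allergen and saline sites of sensitized dogs at 24 hr was 0.44 (adjusted p = 0.575, limma), that between allergen sites and untreated skin was 1.22 (adjusted p = 0.0324), and the PTGES difference of differences was 1.5 (adjusted p = 0.00345).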
